A study of Homo sapiens with 4 samples.

Results

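The genes described here belong to the interferon-gamma response and to antigen presentation on MHC class I molecules. They comprise the MHC class I heavy chains HLA-B and HLA-C, their light chain B2M, the peptide transporter subunit TAP1, the immunoproteasome subunits PSMB8, PSMB9 and PSMB10, the tryptophan-degrading enzyme IDO1 and the transcription factor IRF1. All probes carrying 1 of these 9 gene names in the array's gene column were taken, which gave 15 of the 47229 probes, and every probe is reported. The members were selected on the GANT61 over DMSO ratios of these same arrays, in which PSMB8, PSMB9 and IDO1 were lower in H4, so the treatment ratios of the members are descriptions without a test.

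The arrays came from 2 established human cell lines. ES2 is an ovarian tumour line, and H4 is commonly described as a neuroglioma line, although the labels give both an ovarian adenocarcinoma source with epithelial morphology. Each line was represented by 1 Illumina HumanHT-12 V4 array of cells given the vehicle DMSO and 1 of cells given 20 µM GANT61, a small molecule that inhibits GLI, through which Hedgehog signalling reaches its target genes, both read at 48 h. No group had a replicate, so no difference carries a standard error or a p-value. Of 10 epithelial and ovarian markers, KRT7, KRT8 and KRT18 were detected on both ES2 arrays and KRT18 and MUC1 on both H4 arrays, whereas EPCAM, CDH1, PAX8, WT1, KRT19 and MUC16 were detected on no array. Of 6 glial and neural markers, OLIG2 and NCAM1 were detected on both H4 arrays, the other 4, GFAP among them, on neither, and none on an ES2 array. OLIG2 read 142 with DMSO and 304 with GANT61 in H4, a log2 ratio of 1.10 on these deposited intensities. After the background correction and normalization described below, OLIG2 was 3.13-fold higher (log2 ratio 1.65). Its part in the member results was not tested. Of 10 markers of blood and antigen-presenting cells, CD68 was the only one detected on both arrays of either line, and PTPRC, the leukocyte surface marker CD45, was detected on no array.

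MHC class I molecules show peptides from inside the cell to cytotoxic T cells. Proteasomes cut the proteins, the TAP transporter carries the peptides into the endoplasmic reticulum, and there they are loaded onto a heavy chain paired with B2M. Interferon-gamma acts through JAK kinases, induces IRF1, and raises the transcription of most of these genes. Among them are 3 catalytic subunits that replace their constitutive counterparts to form the immunoproteasome, PSMB9 in place of PSMB6, PSMB10 in place of PSMB7 and PSMB8 in place of PSMB5. IDO1 opens the kynurenine pathway of tryptophan breakdown and is a well-known interferon-gamma target.

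Within H4, the immunoproteasome subunits and IDO1 were lower with GANT61, while the class I chains, TAP1 and IRF1 differed little or were higher. In ES2 none of the detected probes came near a 2-fold difference. A probe counts as detected when its detection p-value was under 0.01 on at least 1 of a line's arrays, which held for 13 of the 15 probes in H4 and 12 in ES2. Of the 13 detected in H4, 6 were at least 2-fold lower with GANT61 and none at least 2-fold higher, where 3.54% of all 15219 detected H4 probes were at least 2-fold lower and 3.97% at least 2-fold higher. Those 6 probes belong to 4 of the 9 genes. In ES2, 0 of 12 were at least 2-fold lower or higher, against 0.0242% of 16505 detected probes in each direction. The median log2 ratio of GANT61 over DMSO was -0.25 over the 13 H4 probes and 0.09 over the 12 ES2 probes, beside -0.05 and 0.01 over all detected probes of the line. Ratios are differences of log2 values after background correction and quantile normalization, and intensities are given as deposited by the authors. As a yardstick within an array pair, the log2 ratios of the brightest pair of probes of a gene differed with an SD of 0.31 in H4 (1909 genes) and 0.20 in ES2 (2438 genes). Of the detected members, 5 of 13 ratios in H4 and 10 of 12 in ES2 were smaller than that SD.

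**Figure D1:**
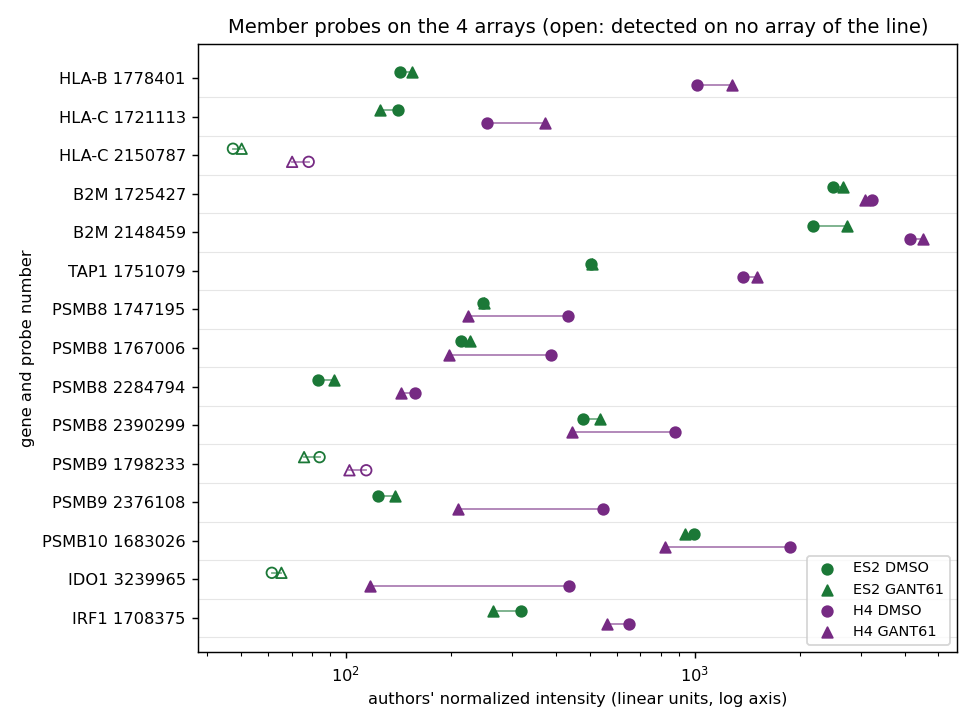
Authors' normalized intensity (horizontal, log axis) of each of the 15 member probes (vertical) on the 4 arrays, with circles for DMSO, triangles for GANT61 and a line joining the pair of a cell line; open symbols mark probes detected on no array of that line. In H4 the brightest PSMB9 probe stood at 546 with DMSO and 209 with GANT61, while the ES2 pair of the same probe lay at 124 and 138.

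The immunoproteasome subunits were lower with GANT61 in H4 on their brightest probes, while the ES2 ratios of these probes were smaller than the SD between probes. PSMB9, the beta1i subunit, had intensities of 124 with DMSO and 138 with GANT61 in ES2 and of 546 and 209 in H4 on probe ILMN_2376108. The H4 cells given DMSO stood alone at the top, and the other arrays lay between 124 and 209. The log2 ratio was -1.73 in H4, or 3.31-fold lower with GANT61, and 0.17 in ES2. Of all detected H4 probes, 94 of 15219 had a lower ratio. The other PSMB9 probe, ILMN_1798233, was detected on no array of either line and had intensities between 76.0 and 115, so PSMB9 rests on 1 probe.

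PSMB10, the beta2i subunit, had 1 probe, with intensities of 996 and 940.3 in ES2 and of 1879 and 821 in H4 for DMSO and GANT61. On these deposited intensities H4 with DMSO again stood apart from the other arrays, which lay between 821 and 996. With each array scaled to a common median, H4 over ES2 was 1.38 with DMSO and 0.615 with GANT61. On that scale H4 with GANT61 lay farther from ES2 than H4 with DMSO did. The log2 ratio was -1.30 in H4 (2.47-fold lower) and -0.08 in ES2.

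PSMB8, the beta5i subunit, was covered by 4 probes. The brightest, ILMN_2390299, read 477 and 534 in ES2 and 880.2 and 447 in H4 for DMSO and GANT61, which is a log2 ratio of 0.17 in ES2 and -1.09 in H4. Probe ILMN_1747195 read 248 and 249 in ES2 and 433 and 224 in H4, with log2 ratios of 0.01 and -1.21. Probe ILMN_1767006 read 214 and 227 in ES2 and 387 and 198 in H4, with log2 ratios of 0.09 and -1.28. These 3 probes were thus 2.12-fold to 2.43-fold lower with GANT61 in H4. In deposited intensity H4 given DMSO was above the other arrays on each, but the distance between the lines depends on the scaling, as given below. The dimmest, ILMN_2284794, read 83.3 and 92.4 in ES2, where 1 array detected it, and 158 and 144 in H4, with a log2 ratio of -0.25 there that is smaller than the SD between probes. The 2-fold call for PSMB8 lies near the threshold. All 3 brighter probes passed it without background correction (log2 ratios of -1.02 to -1.10), but the intensities as deposited, with neither the correction nor the normalization over the 4 arrays, gave 1.94-fold to 1.97-fold lower values, and on that scale 3 member probes (PSMB9, PSMB10 and IDO1) remained at least 2-fold lower.

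With DMSO, H4 stood above ES2 for all 3 immunoproteasome subunits, and with GANT61 the order of the lines depended on the scaling for PSMB10. With DMSO, the normalized level was higher in H4 than in ES2, by 2.11-fold to 2.35-fold on the 3 brighter PSMB8 probes, 2.55-fold for PSMB10 and 5.77-fold for PSMB9. With GANT61 the H4 level was 0.835 to 0.986 of the ES2 level on the same PSMB8 probes, 1.09 for PSMB10 and 1.54 for PSMB9. The authors normalized the lines separately, so these level differences depend on the later normalization over the 4 arrays. On the deposited scale the H4 over ES2 ratios with GANT61 were 0.836 to 0.899 for those PSMB8 probes, 0.873 for PSMB10 and 1.52 for PSMB9. With each array scaled to a common median, H4 over ES2 was 1.28 to 1.35 for those PSMB8 probes with DMSO and 0.550 to 0.579 with GANT61, and for PSMB10 1.38 and 0.615, so the gap between the lines was wider with GANT61 on that scale. For PSMB9 it was 3.83 and 1.07, narrower with GANT61 as on the other scales.

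**Figure D2:**
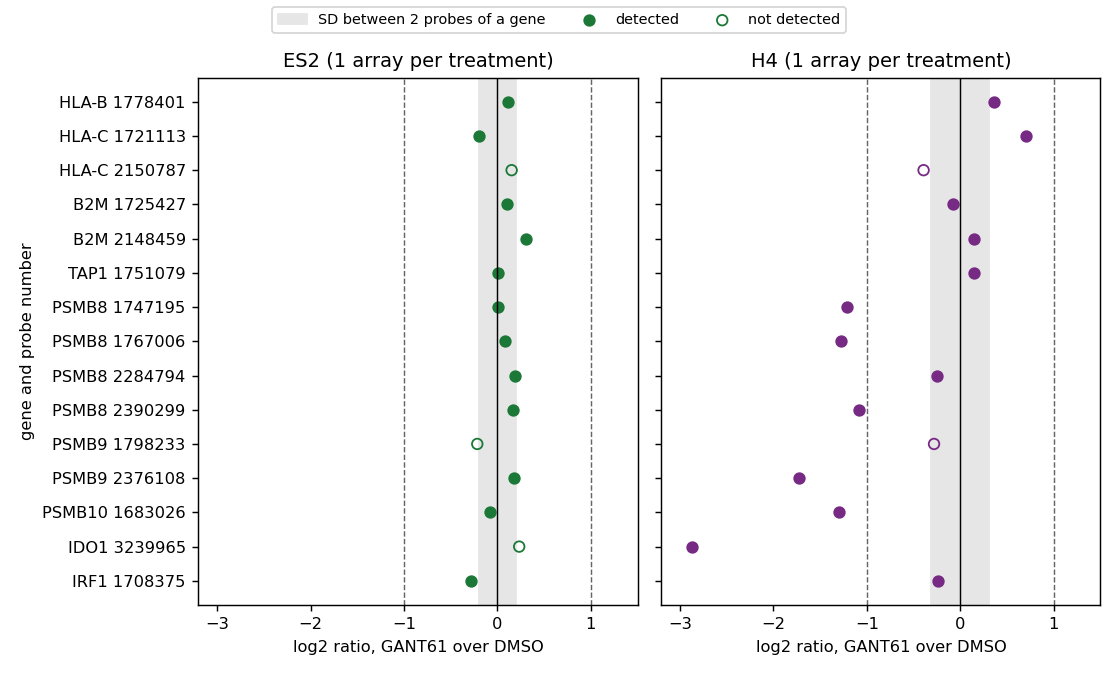
Log2 ratio of GANT61 over DMSO (horizontal) for each member probe (vertical) in ES2 (left) and H4 (right), from 1 array per treatment; dashed lines mark 2-fold, the grey band is the SD of the difference between a pair of probes of a gene, and open circles are probes not detected in the line. The H4 ratios of PSMB8, PSMB9, PSMB10 and IDO1 reach from -1.09 to -2.88 on 6 probes, while the detected ES2 ratios lie between -0.28 and 0.31. The lowest H4 point, IDO1, rests on an array that did not detect the probe.

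IDO1 was measured by 1 probe, ILMN_3239965, which read 61.4 and 65.4 in ES2 and 436 and 118 in H4 for DMSO and GANT61. Neither ES2 array detected it, and 1 of the H4 arrays did, taken to be the brighter one, that given DMSO. IDO1 was therefore at least 3.17-fold lower with GANT61 in H4. For this bound the dimmer array is held at the lowest signal among probes detected on both H4 arrays, or at its own signal if higher, and the smallest fold over the 5 scalings is given. With the undetected array as measured, the log2 ratio ran from -1.89 on the deposited intensities to -2.88 on the normalized scale. In ES2 no fold is given, since both arrays were below detection.

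TAP1, which forms the peptide transporter together with TAP2, did not follow the immunoproteasome subunits. Its probe read 504 and 508 in ES2 and 1381 and 1509.6 in H4 for DMSO and GANT61. The log2 ratio was 0.01 in ES2 and 0.15 in H4, both smaller than the SD between probes. H4 stood above ES2 on both treatments, by 3.63-fold with DMSO and 4.0-fold with GANT61 on the normalized scale and by 2.04-fold and 2.22-fold with median scaling.

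On detected probes, the class I chains were higher with GANT61 in H4 by less than 2-fold, or differed little. HLA-B read 143 and 155 in ES2 and 1019.6 and 1277 in H4, with log2 ratios of 0.12 and 0.36. The gap between lines was far larger than the gap between treatments, with H4 over ES2 at 9.62-fold with DMSO and 11.4-fold with GANT61, or 6.20-fold and 7.12-fold with median scaling. HLA-C read 141 and 125 in ES2 and 255 and 372 in H4 on probe ILMN_1721113, with log2 ratios of -0.19 and 0.70 (1.63-fold higher in H4). A further HLA-C probe, ILMN_2150787, was detected on no array, with intensities from 47.5 to 78.3. HLA genes are polymorphic and near-identical to each other, so a probe can bind several of them or miss an allele, and differences between the lines in level and in allele cannot be told apart here.

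B2M, the invariant light chain, was close to even between treatments. Probe ILMN_1725427 read 2489.7 and 2673 in ES2 and 3231 and 3079 in H4, and probe ILMN_2148459 read 2188 and 2727 in ES2 and 4145 and 4517 in H4. The log2 ratios were 0.10 and 0.31 in ES2 and -0.07 and 0.14 in H4. The ES2 ratio of 0.31 on the second probe was the highest ES2 ratio among detected member probes, and the first probe did not share its size.

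IRF1, the transcription factor that binds interferon-stimulated response elements, was slightly lower with GANT61 in both lines. It read 318 and 265 in ES2 and 650.0 and 561 in H4, with log2 ratios of -0.28 and -0.23. The ES2 ratio exceeded the SD between probes and the H4 ratio did not. IRF1 stood higher in H4 than in ES2 by 2.54-fold with DMSO and 2.63-fold with GANT61, or by 1.51-fold and 1.58-fold with median scaling.

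PSMB8, TAP1 and PSMB9 are neighbours in the MHC class II region of chromosome 6. In GRCh38.p14, PSMB8 lies at chr6:32840717-32844679, TAP1 at chr6:32845209-32853704 and PSMB9 at chr6:32854192-32859851. TAP1 and PSMB9 are transcribed away from each other from starts with 487 bases between them, and their H4 log2 ratios were 0.15 and -1.73. RefSeq promoter windows, which run from 250 bases before to 50 after an annotated start, were found for 8 members (10 windows, since PSMB8 and TAP1 have a pair of starts each), and none is shown for IDO1. They were searched on both strands for the interferon-stimulated response element ISRE (GAAA, any pair of bases and GAAA again), the gamma-activated site GAS (TTCNNNGAA), the CCAAT box (CCAAT) and the GC box (GGGCGG). These occur in 3.57%, 7.66%, 34.6% and 45% of the 35116 windows in the table. The windows below are shown because they set the lower subunits beside TAP1, B2M and IRF1, which were not lower by 2-fold. All are 5′ to 3′ on the gene's strand, with ISRE and GAS matches in capitals.
PSMB9 (chr6:32853942-32854241, plus strand): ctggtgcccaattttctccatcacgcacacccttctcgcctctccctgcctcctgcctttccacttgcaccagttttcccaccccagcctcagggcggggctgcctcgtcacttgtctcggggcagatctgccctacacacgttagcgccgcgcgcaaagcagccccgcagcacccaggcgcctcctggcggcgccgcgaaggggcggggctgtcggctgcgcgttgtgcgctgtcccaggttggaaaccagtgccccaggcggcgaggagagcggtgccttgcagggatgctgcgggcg
TAP1, first start (chr6:32853655-32853954, minus strand): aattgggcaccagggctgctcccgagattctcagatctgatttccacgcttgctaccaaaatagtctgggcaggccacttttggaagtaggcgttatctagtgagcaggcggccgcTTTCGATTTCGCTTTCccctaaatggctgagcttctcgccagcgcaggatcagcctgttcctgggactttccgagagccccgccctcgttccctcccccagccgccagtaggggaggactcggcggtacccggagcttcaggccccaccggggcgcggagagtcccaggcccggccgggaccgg
PSMB8, second start (chr6:32843998-32844297, minus strand): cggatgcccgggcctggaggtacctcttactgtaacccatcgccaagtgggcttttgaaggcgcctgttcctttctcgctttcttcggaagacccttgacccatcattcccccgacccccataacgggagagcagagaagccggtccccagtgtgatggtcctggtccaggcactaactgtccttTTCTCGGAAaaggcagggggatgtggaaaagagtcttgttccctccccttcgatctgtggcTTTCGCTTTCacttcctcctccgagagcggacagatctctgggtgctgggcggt
PSMB10 (chr16:67936801-67937100, minus strand): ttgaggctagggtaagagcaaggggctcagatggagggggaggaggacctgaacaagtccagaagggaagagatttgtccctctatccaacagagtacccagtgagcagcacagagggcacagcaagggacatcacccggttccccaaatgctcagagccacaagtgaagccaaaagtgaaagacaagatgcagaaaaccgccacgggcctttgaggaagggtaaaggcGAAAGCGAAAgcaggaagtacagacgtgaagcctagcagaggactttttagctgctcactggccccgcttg
B2M (chr15:44711267-44711566, plus strand): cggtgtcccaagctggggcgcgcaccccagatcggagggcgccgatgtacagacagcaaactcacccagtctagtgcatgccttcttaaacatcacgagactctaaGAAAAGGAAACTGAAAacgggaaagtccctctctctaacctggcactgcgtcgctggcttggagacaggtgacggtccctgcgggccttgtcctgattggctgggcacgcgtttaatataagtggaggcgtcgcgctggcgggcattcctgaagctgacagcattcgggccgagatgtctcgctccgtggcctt
IRF1 (chr5:132490724-132491023, minus strand): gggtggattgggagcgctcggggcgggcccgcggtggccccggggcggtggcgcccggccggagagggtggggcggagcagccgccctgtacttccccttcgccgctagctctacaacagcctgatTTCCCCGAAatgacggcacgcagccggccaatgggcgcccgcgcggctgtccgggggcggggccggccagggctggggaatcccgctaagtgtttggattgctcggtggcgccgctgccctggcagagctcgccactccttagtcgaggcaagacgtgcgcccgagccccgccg

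An ISRE match occurred in windows of genes on both sides of the H4 difference. PSMB10 had 1, beginning 21 bases before its start, and the window of the second PSMB8 start had 1 that spans the start and a GAS match 65 bases before it. TAP1 had a pair of overlapping ISRE matches, the first 134 bases before its first start, and B2M an overlapping pair, the first 144 bases before its start. IRF1 had a GAS match 124 bases before its start, and the window of the second TAP1 start one 189 bases before that start. In the PSMB9 window, in that of the first PSMB8 start and in those of HLA-B and HLA-C these letters did not occur for either element. The TAP1 and PSMB9 windows share 13 bases, and the ISRE matches before the first TAP1 start lie between the starts of both genes, outside the PSMB9 window. CCAAT matches were most frequent in the HLA-C (4) and HLA-B (3) windows. A match is a run of letters in the reference and does not show that a factor binds there.

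**Figure D3:**
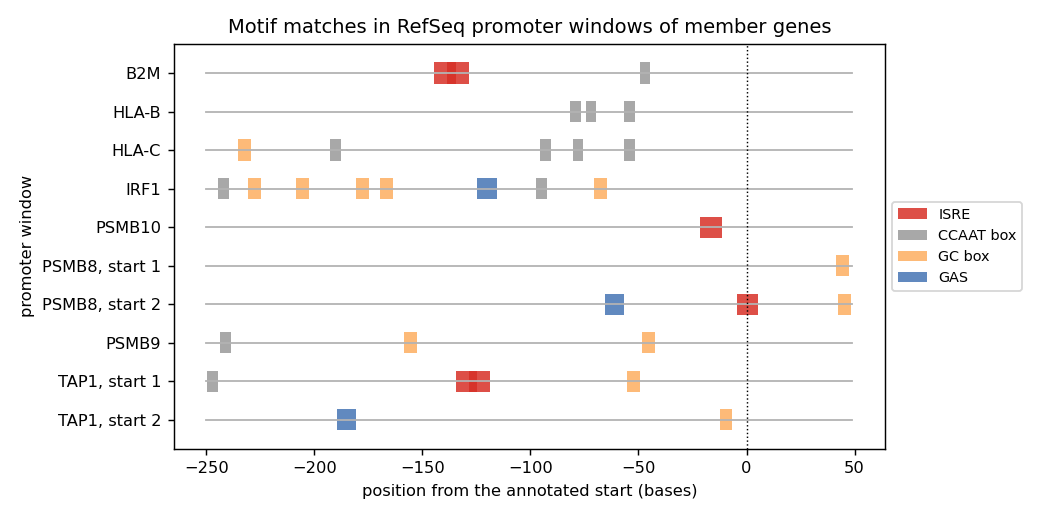
Matches to ISRE, GAS, CCAAT box and GC box (coloured bars, as named in the key) by position from the annotated start in bases (horizontal) in the 10 RefSeq promoter windows of 8 member genes (vertical); grey lines show the searched window. ISRE matches occur in the windows of B2M, PSMB10, the second PSMB8 start and the first TAP1 start.

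Other genes of the pathway were taken from 10 lists with 85 current gene symbols, each gene represented by its brightest probe. These lists too were set with earlier results of these arrays known. In H4, 60 of the 85 genes were detected, with 3 at least 2-fold lower and 1 at least 2-fold higher and a median log2 ratio of -0.11, beside 3.52% lower, 4.07% higher and a median of -0.05 over all 11592 detected genes. In ES2, 55 were detected, with none at 2-fold and a median of 0.06, beside 0.0326% in each direction and a median of 0.00 over 12264 genes. The share past 2-fold in either direction was thus near that of all genes. Of all detected genes, 54.5% were below 0 in H4 and 50.6% above 0 in ES2. Of the 60 genes, 12 were detected on 1 H4 array, and with these at their bounds 2 were at least 2-fold lower and the median was -0.10.

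Of the proteasome activator, PSME2 was at least 2-fold lower with GANT61 in H4, and PSME1 was lower by less. PSME2, the beta subunit of the interferon-inducible PA28 activator, read 1608 and 1689 in ES2 and 3049 and 1401 in H4 for DMSO and GANT61, and was 2.26-fold lower in H4 (log2 ratio -1.18) against a log2 ratio of 0.06 in ES2. Its partner PSME1 read 4260 and 2872 in H4 and 2910 and 3265 in ES2, with log2 ratios of -0.60 and 0.17. POMP, the chaperone of proteasome assembly, had a log2 ratio of 0.38 in H4. The constitutive counterparts of the 3 members differed less, with H4 log2 ratios of -0.05 for PSMB5, -0.08 for PSMB6 and 0.31 for PSMB7, and ES2 ratios of 0.12, 0.20 and 0.37. Over the 7 constitutive beta subunits the H4 ratios ran from -0.51 (PSMB4) to 0.31 with a median of -0.10, and 6 of the 7 were below 0. In ES2 all 7 were above 0, with a median of 0.20.

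Among other targets of interferon-gamma, the guanylate-binding GTPase GBP2 was 3.15-fold lower with GANT61 in H4. It read 92.9 and 96.8 in ES2 and 588 and 230.0 in H4, so that H4 with DMSO was again the highest array. The log2 ratio of GBP2 was -1.65 in H4, or -1.36 on the deposited intensities, and 0.07 in ES2. The brightest GBP1 probe, detected on 1 H4 array with intensities of 182 and 126, was at least 1.33-fold lower there. This probe passed 2-fold only with the undetected array as measured (log2 ratio -1.02). The other GBP1 probe, detected on at least 1 H4 array, had a measured log2 ratio of -1.12 there. In ES2 the ratios of the brightest and the other GBP1 probe were -0.11 and -0.38. Over the 14 genes of this list, 6 were detected in H4 with a median of -0.91, or -0.46 with GBP1 and CXCL10 at their bounds, and 4 in ES2 with a median of 0.04. CXCL9, CXCL11, CD274, ICAM1, GBP4 and GBP5 were detected on no array of either line. WARS1, a tRNA synthetase induced by interferon-gamma, had log2 ratios of 0.14 in H4 and 0.01 in ES2. CASP1 read 268 and 174 in H4, with a log2 ratio of -0.89 on its brightest probe and -0.61 on another. In ES2 the brightest CASP1 probe was detected on 1 array and was at least 1.06-fold higher. IFI30 had a log2 ratio of -0.18 in H4 and was below detection in ES2.

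The signalling genes upstream of these targets were measured without a 2-fold difference. IFNG, the cytokine itself, was detected on no array. The receptor chain IFNGR1 read 535 and 642 in ES2 and 637 and 468 in H4, with log2 ratios of 0.28 and -0.50, and IFNGR2 read 1469 and 1431 in ES2 and 1406 and 2105 in H4, with ratios of -0.04 and 0.63. The receptor chains thus lay on opposite sides in H4. NLRC5, the transactivator of MHC class I genes, was detected on no array. Of the regulators detected, NFYC had the ratio farthest from 0 in H4 at -0.62. In the IRF family, IRF3, IRF7 and IRF9 were detected on both H4 arrays, with log2 ratios of -0.45, -0.34 and -0.47. A further 3 were detected on 1 H4 array, of which IRF2 and IRF8, the one with the measured ratio farthest from 0, had no fold left at their bounds. The median over these 6 was -0.39 as measured and -0.17 at the bounds.

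Of 7 further class I genes, 1 was at least 2-fold higher with GANT61 in H4 and none at least 2-fold lower. MICA, a stress-induced ligand of the NK cell receptor NKG2D, read 202 and 259 in ES2 and 275 and 569 in H4 and was 2.39-fold higher in H4 (log2 ratio 1.26) against 0.38 in ES2. In this list 6 of 7 genes were above 0 in H4 with a median of 0.61, and 5 of 6 in ES2 with a median of 0.24. The H4 ratios ran from -0.75 (MR1) to that of MICA, with HLA-E at 0.03. HLA-F had a ratio of 0.61 on its brightest H4 probe and of -1.07 on another, so its direction depends on the probe. TAP2 likewise gave 0.31 on its brightest H4 probe and -0.53 on another. The 7 peptide loading genes detected in H4 had a median of -0.02, with CALR, the chaperone calreticulin, farthest from 0 at -0.47.

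Most MHC class II genes were below detection in H4. They were detected for 3 of 11 symbols there, all below 0. HLA-DMA, which helps load class II molecules, was detected on both H4 arrays, at 453 and 360 (log2 ratio -0.39), and its partner HLA-DMB on 1, at least 1.33-fold lower. In ES2, 5 of the 11 class II genes were detected, all above 0, with a median of 0.11. CIITA, the class II transactivator, was detected on no array. TDO2, which catalyses the same first step as IDO1, was detected on 1 H4 array and was at least 1.38-fold lower there. KYNU, which cleaves kynurenine, read 2202 and 2055 in H4 (log2 ratio -0.11) and was below detection in ES2. QPRT, which makes NAD precursors from the end product of the pathway, was detected in ES2 alone, where it read 255 and 488, a log2 ratio of 0.96.

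**Figure D4:**
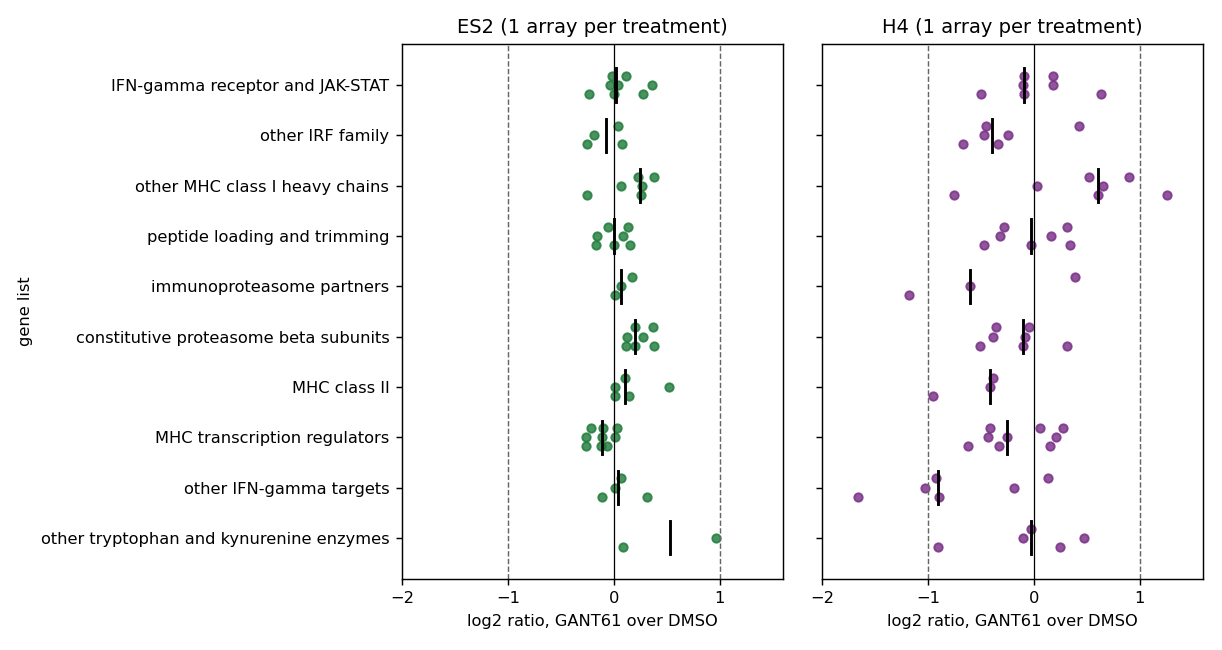
Log2 ratio of GANT61 over DMSO (horizontal) for the detected genes of 10 pathway lists (vertical) in ES2 (left) and H4 (right), 1 point per gene and 1 array per treatment; black bars are list medians and dashed lines mark 2-fold. In H4 the points past the lower line are PSME2, GBP2 and GBP1, the last resting on an array that did not detect it, and the point past the upper line is MICA.

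Values like those of PSMB9 were also found in genes outside the members. The distance was Euclidean over the 4 arrays, on log2 levels centred within each line's pair, among 10999 probes detected on all arrays. The 5 nearest non-members were TRMT5 (H4 log2 ratio -1.77), ATP1B1 (-1.72), NUSAP1 (-1.68), AURKA (-1.77) and PARPBP (-1.66). NUSAP1 and AURKA are mitotic spindle genes. With 4 arrays, in effect a ratio per line, nearness describes these values and nothing more.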

How the data were processed

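Total RNA of 4 cultures was amplified to biotin-labelled cRNA and hybridized to Illumina BeadChips, per the labels' protocols. The authors' deposited value table holds a linear intensity per probe and array, which the values show to be quantile-normalized within each line and not background-subtracted; the software is not given in the sources used here. A second deposited table gives gene names and a detection p-value per probe and array. Its 4 signal columns name a line and a number but no treatment and were not used, and its detection p-values were used as the number of a line's arrays with p under 0.01.

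In R 4.3.3, limma 3.58.1 corrected the intensities for background (normexp by saddle-point, with 16 added). Then log2 was taken and all 4 arrays were quantile-normalized together. The procedure was tested on simulated data with folds set within a line, only in probes bright on all 4 arrays. Folds of probes dim on any array, such as those of PSMB9, GBP2 and IDO1, and level differences between lines were not simulated. Correction enlarges the ratios of dim probes, and quantile normalization removes a change that all genes share. The number of arrays limits the precision. Every member probe is reported; from the pathway lists, genes at least 2-fold different were named, otherwise the gene farthest from 0 in H4, plus the receptors, NLRC5, TAP2, PSMB5 to PSMB7, PSME1 and PSME2. POMP, WARS1, CASP1, IFI30, HLA-F, HLA-E, MR1, QPRT, KYNU, HLA-DMA, CXCL10, IRF2, IRF3, IRF7, IRF9, OLIG2, NCAM1, IFNG, CIITA and the undetected targets lie outside this rule and were named after their values were seen. Some genes of the rule are not reported here. Members, lists and rules were chosen with earlier results of these data known. List symbols were updated through the RefSeq table of GRCh38.p14, which also gave positions and promoters. Alternatives are described at the end.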

Additional observations from a re-analysis of the deposited data

Results flagged for a closer look

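For 7 of the 12 member probes detected in both lines, the log2 ratio of GANT61 over DMSO had opposite signs in H4 and ES2, with 1 pair of arrays per line. Of all 13269 probes detected in both lines, 52.5% had opposite signs, so the members' count lies near the background. The difference between the lines was not tested. The H4 and ES2 values were 0.70 and -0.19 for HLA-C (ILMN_1721113), -0.074 and 0.10 for B2M (ILMN_1725427), and -1.73 and 0.17 for PSMB9 (ILMN_2376108). For PSMB8 they were -1.21 and 0.01 (ILMN_1747195), -1.28 and 0.09 (ILMN_1767006), -0.25 and 0.18 (ILMN_2284794), and -1.09 and 0.17 (ILMN_2390299). Of these 7, 5 exceeded the SD between probes of a gene in H4 and 0 did so in ES2. That SD compares probes on the same arrays and holds no variation between cultures, so it settles the sign in neither line.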

How the results depend on the processing

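Under 9 alternatives, the number of member probes at least 2-fold lower in H4 was 6 in 6 settings, of 13 probes or of 15 without a detection filter. It was 5 of 12 for probes detected on both arrays and 4 of 9 with the brightest probe of each gene. On the authors' intensity as deposited it was 3 of 13. The H4 and ES2 medians moved by less than the SD between probes in all 9, and no member ratio changed sign under the 4 other scalings. Of 130 single-probe values, 11 moved by more than that SD, all in H4: IDO1 in 9 settings (-1.66 to -2.49, 4 of them its bound under other scalings, added after seeing the data), and PSMB8 (ILMN_1767006, -0.97) and PSMB9 (ILMN_2376108, -1.38) on the deposited scale. Over all detected H4 probes, 538 were at least 2-fold lower and 604 higher, against 308 and 402 without background correction, 319 and 414 with an offset of 50 and 230 and 310 on the deposited scale. In ES2 the 4 and 4 became 1 and 1, 1 and 1, and 2 and 2. Median scaling lowered H4 over ES2 for the member levels named above by over 1.5 times, except for PSMB9 with GANT61 (1.54 to 1.07). No paired analysis was possible because each group has 1 array. Dim probes near background limit IDO1 and the fourth PSMB8 probe.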
